A study of Mus musculus with 6 samples.

Results

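miR-126 is the hallmark microRNA of endothelial cells, and both arms of its mouse hairpin, miR-126a-3p and miR-126a-5p, were followed in kidney small RNA libraries from a lupus-prone strain and a control strain. The members are the rows mmu-miR-126a-3p and mmu-miR-126a-5p (mmu- marks mouse) of the deposited count table, 2 of 1542 rows, and both passed the filter on low counts that left 451 miRNAs for testing. The libraries came from kidneys of 17-week-old female mice. The control group was C57BL/6, labelled wild type (3 libraries). The other group was MRL/lpr, given as MRL/MpJ-Fas<lpr>/J (3 libraries): it carries the lpr allele of Fas on the MRL background and develops lupus with nephritis on its own, with no treatment named for either group. Background strain, the lpr allele and disease cannot be told apart in this design. Whether the 3 libraries of a strain came from 3 animals is not in the labels, so a p-value here weighs a difference only against the spread among these samples, which may be technical.

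A microRNA is cut from a hairpin whose 2 sides give a 5p and a 3p mature strand, and the strand loaded into an Argonaute protein guides repression of messenger RNAs that match its seed. The miR-126 hairpin sits inside Egfl7, a gene for a protein secreted by endothelial cells, and shares its endothelial expression. The 3p arm represses Spred1 and Pik3r2, brakes on signalling from the VEGF receptor, and the adhesion molecule Vcam1. The 5p arm represses Dlk1, a Notch ligand, in endothelial cells. The kidney is rich in endothelium, in glomerular and peritubular capillaries, while blood platelets and blood progenitors also carry miR-126.

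The sequences are shown because the locus reads on both strands. The Mir126a hairpin lies on chromosome 2 (GRCm38.p6, chr2:26591357-26591429, plus strand) inside Egfl7 (26580014 to 26593120, plus strand, ENSMUSG00000026921.18 in GENCODE M21). All 7 coding Egfl7 transcripts that span it hold it in an intron, and 1 retained-intron transcript covers it with an exon. The miR-126b hairpin is annotated by RefSeq on the minus strand of the same bases (chr2:26591363-26591420). Mature sequences and hairpin below are from RefSeq (GRCm38.p6), 5′ to 3′. The reference used held no mature entry for miR-126a-5p, so that sequence is not shown. Capitals mark the seed, bases 2 to 8, in the mature sequences, and miR-126a-3p in the hairpin.
miR-126a-3p: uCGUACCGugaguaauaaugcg
miR-126b-3p: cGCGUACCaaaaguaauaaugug
miR-126b-5p: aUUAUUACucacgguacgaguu
Mir126a hairpin: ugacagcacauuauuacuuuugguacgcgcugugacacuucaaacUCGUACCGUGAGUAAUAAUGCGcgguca

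miR-126a-3p fills bases 46 to 67 of the 73-base hairpin, and in its computed fold 19 of the 22 bases of this arm pair with bases between positions 7 and 27, on the 5′ side that gives the 5p arm. miR-126b-3p is the exact reverse complement of bases 7 to 29 of the hairpin, so it lies antisense to the 5p side, and miR-126b-5p is that of bases 43 to 64, antisense to the 3p arm. Of the 1190 table rows with a miRBase name, 996 matched a RefSeq mature sequence by name. No other mouse mature sequence among the 1679 in that reference shares the seed of miR-126a-3p. The longest stretch it shares with another matched miRNA of the table is 10 bases, with miR-126b-3p. The seed and shared stretches of miR-126a-5p were not compared, for lack of its sequence in that reference.

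miR-126a-3p was among the most abundant miRNAs of the kidney in both strains. It took 7.36%, 6.84% and 7.39% of all counts in C57BL/6 replicates 1, 2 and 3, and 6.38%, 7.07% and 6.20% in MRL/lpr replicates 1, 2 and 3. Library totals ran from 5259528 to 6773829 counts, so the exact (Clopper-Pearson) 95% binomial interval for the first of these shares, 7.34% to 7.38%, is narrow. Such intervals cover counting error only, since PCR copies cannot be told from separate molecules here. Its rank by count was 2 in 4 libraries, 3 in MRL/lpr replicate 1 and 4 in MRL/lpr replicate 3. By mean level over the 6 libraries it stood at rank 2 of 451, behind let-7f-5p, which was higher in 6 of 6 libraries. The miRNA at rank 3, miR-26a-5p, was higher than miR-126a-3p in 1 of 6 libraries, and their means were close, at 68668 and 69196 CPM.

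Levels between libraries are given as CPM, the counts of a miRNA relative to the size of its library, with TMM factors, a method that sets a common scale from the bulk of miRNAs. miR-126a-3p had 81741, 68252 and 77942 CPM in C57BL/6 replicates 1, 2 and 3. It had 58139, 72132 and 56967 CPM in MRL/lpr replicates 1, 2 and 3. MRL/lpr replicates 1 and 3 lay below every C57BL/6 library, while MRL/lpr replicate 2 lay between C57BL/6 replicates 2 and 3, so the groups overlapped. The mean was 75978 ± 6956 CPM for the C57BL/6 group and 62413 ± 8438 CPM for the MRL/lpr group (SD, n = 3).

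The fitted level of miR-126a-3p in MRL/lpr was 0.821 times that in C57BL/6, with a 95% interval of 0.658 to 1.02 (log2 fold change -0.28 ± 0.14 SE). The difference did not pass (edgeR's quasi-likelihood test with Benjamini-Hochberg adjustment over all miRNAs tested, adjusted p = 0.285). The interval thus holds both no change and a level as low as 0.658 times that of C57BL/6. The log2 fold change was below 0 in all 16 alternative settings, from -0.43 without MRL/lpr replicate 2 to -0.14 with library size alone, and adjusted p ran from 0.103 to 0.688. In bulk kidney, fewer endothelial cells and less miR-126 per cell cannot be told apart.

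miR-126a-5p, the minor arm, ranked 69 of 451 by mean level. It had 1163, 1094 and 902 CPM in C57BL/6 replicates 1, 2 and 3. It had 964, 924 and 1083 CPM in MRL/lpr replicates 1, 2 and 3. The highest and the lowest of the 6 values were both in C57BL/6, and all 3 MRL/lpr values fell between them.

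The mean of miR-126a-5p was 1053 ± 135 CPM for the C57BL/6 group and 990.4 ± 82.7 CPM for the MRL/lpr group (SD, n = 3). The fitted ratio was 0.941, with a 95% interval of 0.713 to 1.24 (log2 fold change -0.09 ± 0.18 SE), and it did not pass (edgeR adjusted p = 0.799). The sign turned with the scaling, to 0.07 on the log2 scale with library size alone, a setting that raised the median of all miRNAs by 0.15 on the log2 scale. Its neighbours in rank, miR-532-5p and miR-872-3p, lay above it in 4 and 3 of 6 libraries, so the order at that level is not settled.

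**Figure D1:**
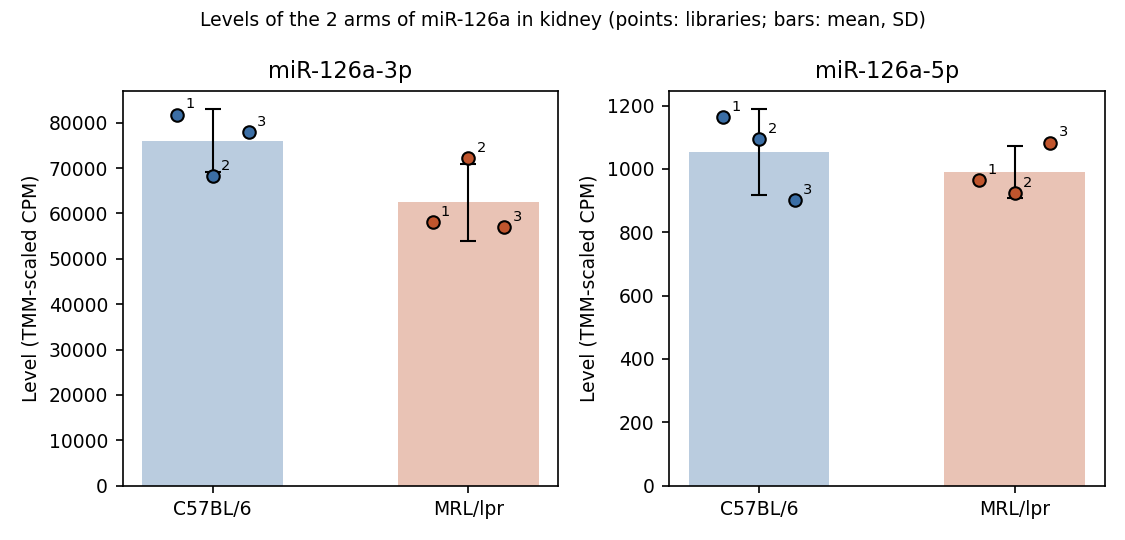
Level of miR-126a-3p (left) and miR-126a-5p (right) in TMM-scaled CPM, with points for the 6 libraries labelled by replicate number, bars at the group mean and error bars of 1 SD (n = 3). MRL/lpr replicate 2, at 72132 CPM, places miR-126a-3p of that group inside the C57BL/6 range, and the 5p arm of MRL/lpr lies within the C57BL/6 range of 902 to 1163 CPM.

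Neither arm was among the 28 miRNAs past the threshold, which are 6.21% of those tested (4.21% higher and 2.00% lower in MRL/lpr). At an unadjusted p of 0.05 neither passed in this test either. By size of change, 189 of the 451 miRNAs had a smaller absolute log2 fold change than miR-126a-3p and 63 a smaller one than miR-126a-5p. Among the 156 with a mean of at least 100 CPM, the median absolute log2 fold change was 0.21, against 0.36 over all tested. Of those 156, 95 had a smaller absolute log2 fold change than miR-126a-3p and 32 a smaller one than miR-126a-5p.

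Both arms varied little between libraries of a strain. The coefficient of variation of miR-126a-3p was 9.16% in C57BL/6 and 13.5% in MRL/lpr, and that of miR-126a-5p was 12.9% and 8.35%. If each read were a separate molecule, counting error alone would give at most 0.170% for the 3p arm and at most 1.45% for the 5p arm. PCR copies cannot be told from separate molecules here, so the true sampling error may be larger. The within-group SD on the log2 scale was 0.16 for each arm. Of the 156 miRNAs with a mean of at least 100 CPM, 37 varied less than miR-126a-3p and 32 less than miR-126a-5p, and the median SD was 0.25.

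**Figure D2:**
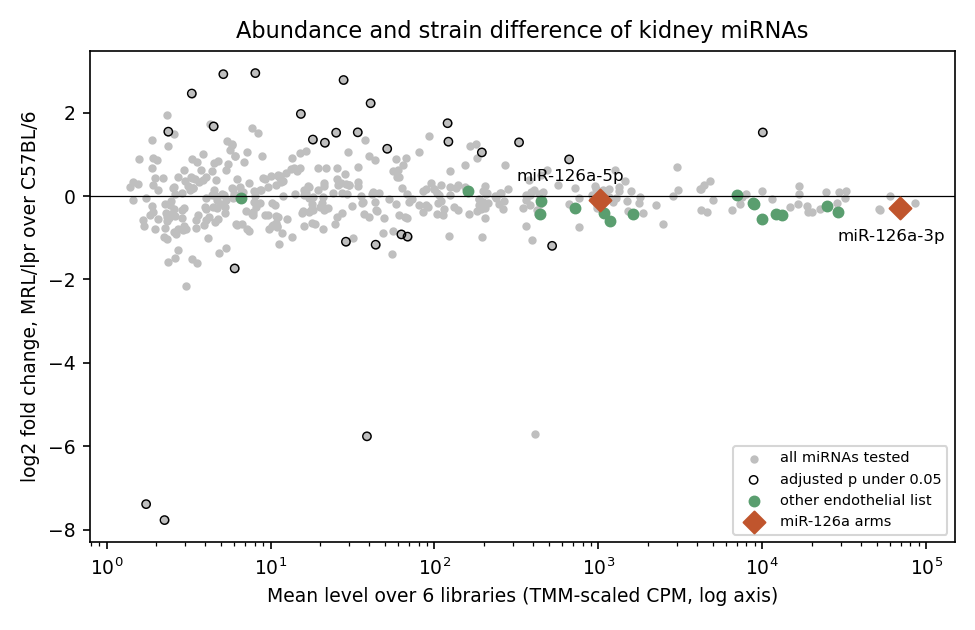
Mean level over the 6 libraries (TMM-scaled CPM, log axis) against the log2 fold change of MRL/lpr over C57BL/6 for the 451 miRNAs tested, with calls circled, the other endothelial list in green and the miR-126a arms as orange diamonds. miR-126a-3p sits at the abundant end at -0.28 and miR-126a-5p at -0.09, and neither is circled.

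The 3p arm exceeded the 5p arm by 67.4-fold (from the mean of the 6 log2 ratios). The 5p arm made up 1.40%, 1.58% and 1.14% of the counts of both arms in C57BL/6 replicates 1, 2 and 3. It made up 1.63%, 1.27% and 1.87% in MRL/lpr replicates 1, 2 and 3. The exact 95% intervals were, for example, 1.11% to 1.17% for C57BL/6 replicate 3 and 1.82% to 1.91% for MRL/lpr replicate 3. These libraries differed beyond counting error if each read is taken as a separate molecule. The strains overlapped, with a mean of 1.37% ± 0.218 for C57BL/6 and of 1.59% ± 0.303 for MRL/lpr (SD, n = 3). Ligation and PCR favour some ends over others, so the ratio between arms is less certain than the level of 1 arm between libraries.

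Arm balance, the log2 of 5p over 3p CPM after adding 1, did not differ between strains beyond the spread (difference 0.20 ± 0.26 SE, 95% interval -0.36 to 0.77, limma adjusted p = 0.868 over 105 hairpins). The test called 1 of the 105 hairpins (0.952%), miR-193a. Of the 42 hairpins in which the 3p arm prevailed, 12 leaned further to it than miR-126a. No relation of the arms across libraries was seen: Pearson's r of their log2 CPM was 0.0016 (exact permutation p = 1, n = 6) and Spearman's rho was 0.029 (exact permutation p = 1, n = 6). Without the 2 libraries farthest from the median of the 3p arm, r was 0.12 over 4. This was the 1 relation tested, so its adjusted p is also 1. With 6 libraries only a strong relation could be seen. MRL/lpr replicate 2 had the highest 3p and the lowest 5p level of its group.

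**Figure D3:**
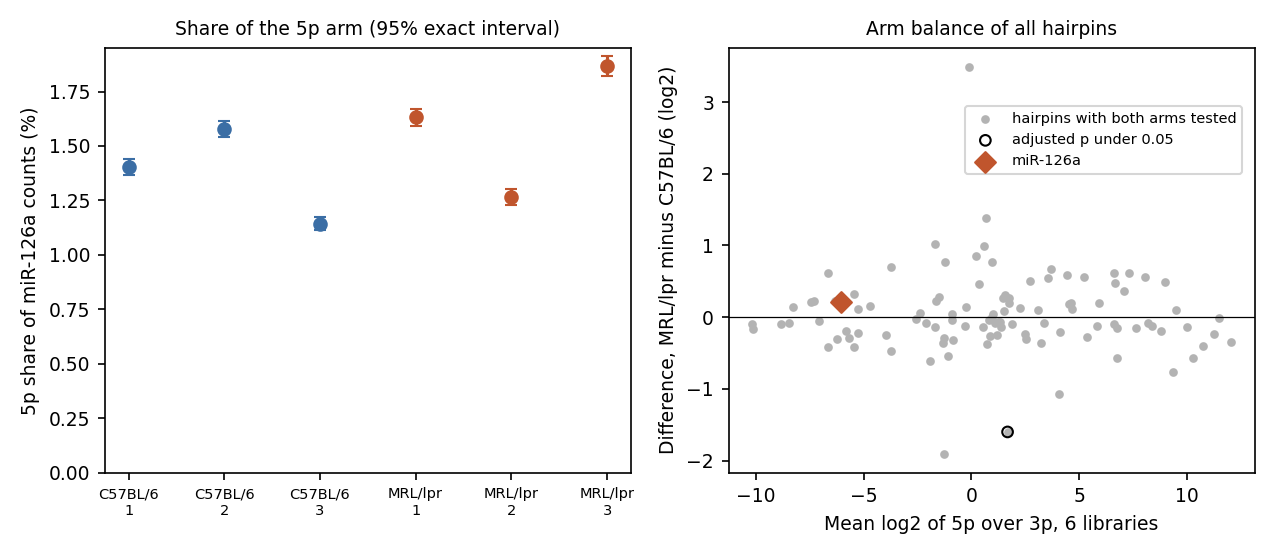
Left, share of the 5p arm in the counts of both miR-126a arms in each library, with exact 95% intervals for counting error. Right, mean log2 of 5p over 3p (x) against its difference between strains (y) for the 105 hairpins with both arms tested, where miR-126a (orange diamond) has a difference of 0.20 and the 1 call is circled.

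The antisense hairpin gave few counts. miR-126b-3p had 11, 13 and 6 counts in C57BL/6 replicates 1, 2 and 3 and 10, 6 and 5 in MRL/lpr replicates 1, 2 and 3, too few to pass the filter, so it was not tested. Its 51 counts in all are 0.140% of the 36420 counts of miR-126a-5p, from 0.0764% in MRL/lpr replicate 3 to 0.193% in C57BL/6 replicate 1. miR-126b-5p, antisense to the 3p arm, had 0 counts in every library, which allows up to 0.570 CPM, before TMM scaling, in the shallowest (3 counts of its total). No source used here says whether counting took account of strand, so reads of miR-126b-3p and of its sense partner may not be fully separated.

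Other miRNAs that are abundant or active in endothelial cells, though none is specific to them and several are also made by tubule cells, leaned lower in MRL/lpr. Of 17 listed, 16 were tested (miR-132-3p was not, with at most 30 counts in a library), and 0 passed the test. At an unadjusted p under 0.05, 6 of the 16 were lower with edgeR, 5 with DESeq2 and 7 with limma-voom, and none was higher with any of these. Over all miRNAs such a p was found for 94 of 451 (20.8%) with edgeR, 44 of them lower, for 97 of 451 (21.5%) with limma-voom, 44 of them lower, and for 103 of 1395 (7.38%) with DESeq2, 46 of them lower. DESeq2 was run without the filter on low counts. The log2 fold change was below 0 for 14 of the 16, with a median of -0.33, against 232 of 451 (51.4%) and a median of -0.03 over all tested. Members of the list are not all separate observations: miR-23b-3p and miR-27b-3p, for example, come from the same cluster. Counts of list members, here and below, therefore describe the list and were not tested against all miRNAs. Among miRNAs with a mean of at least 100 CPM, 13 of 15 in the list and 89 of 156 in all were below 0. The lean was not particular to the list. Abundant miRNAs outside it were also lower, such as let-7a-5p (log2 fold change -0.32), let-7d-5p (-0.39) and miR-181a-5p (-0.38). Others were not, such as let-7g-5p (0.00) and miR-30c-5p (0.37).

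Scaling moved the counts of list members below 0: 12 of the 16 with library size alone (median -0.18, when the median of all miRNAs was 0.12), and 15 with upper-quartile scaling. Over all miRNAs tested, 42.1% were below 0 with library size alone and 54.1% with upper-quartile scaling. With each library left out in turn, 13 to 16 of the list were below 0, against 48.6% to 55.6% of all miRNAs tested. The CPM of the groups did not overlap for 7 of the 16, all lower in MRL/lpr. Over all miRNAs tested it did not overlap for 130 of 451 (28.8%), 67 of the 130 lower. Among miRNAs with a mean of at least 100 CPM, the groups did not overlap for 7 of 15 in the list, all lower. In all, 38 of 156 at that level did not overlap, 22 of the 38 lower. Summed over the list, the level was 134383, 133870 and 130336 CPM in C57BL/6 replicates 1, 2 and 3, and 107487, 109997 and 100742 CPM in MRL/lpr replicates 1, 2 and 3. Every C57BL/6 sum lay above every MRL/lpr sum, also with library size alone (12.1% to 13.4% of counts against 10.8% to 11.8%).

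The 4 most abundant tested members of the list were miR-10a-5p, miR-27b-3p, miR-23b-3p and miR-10b-5p. miR-10a-5p, made from a Hox gene cluster, had 30701, 32272 and 35229 CPM in C57BL/6 and 23586, 27949 and 24167 CPM in MRL/lpr (log2 fold change -0.38, edgeR adjusted p = 0.133). miR-10b-5p, from another Hox cluster, had 13964, 13444 and 14280 CPM in C57BL/6 and 9371, 11373 and 10361 CPM in MRL/lpr (log2 fold change -0.42, edgeR adjusted p = 0.101). In both, all MRL/lpr libraries lay below all C57BL/6 libraries.

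miR-23b-3p and miR-27b-3p come from 1 cluster with known roles in vessel growth. miR-23b-3p had 16037, 15305 and 14686 CPM in C57BL/6 and 10119, 12841 and 10508 CPM in MRL/lpr (log2 fold change -0.46, edgeR adjusted p = 0.0909), again without overlap. miR-27b-3p overlapped, with 27016 ± 2555 CPM for C57BL/6 and 22855 ± 3664 CPM for MRL/lpr (SD, n = 3; edgeR adjusted p = 0.419). Calls in the list appeared under 2 settings, 1 of 16 members in each. miR-23a-3p was lower when no filter was used (edgeR adjusted p = 0.0372) and miR-23b-3p without MRL/lpr replicate 2 (edgeR adjusted p = 0.0461). Over all miRNAs, 30 of 1395 were called lower with no filter and 15 of 481 without MRL/lpr replicate 2.

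**Figure D4:**
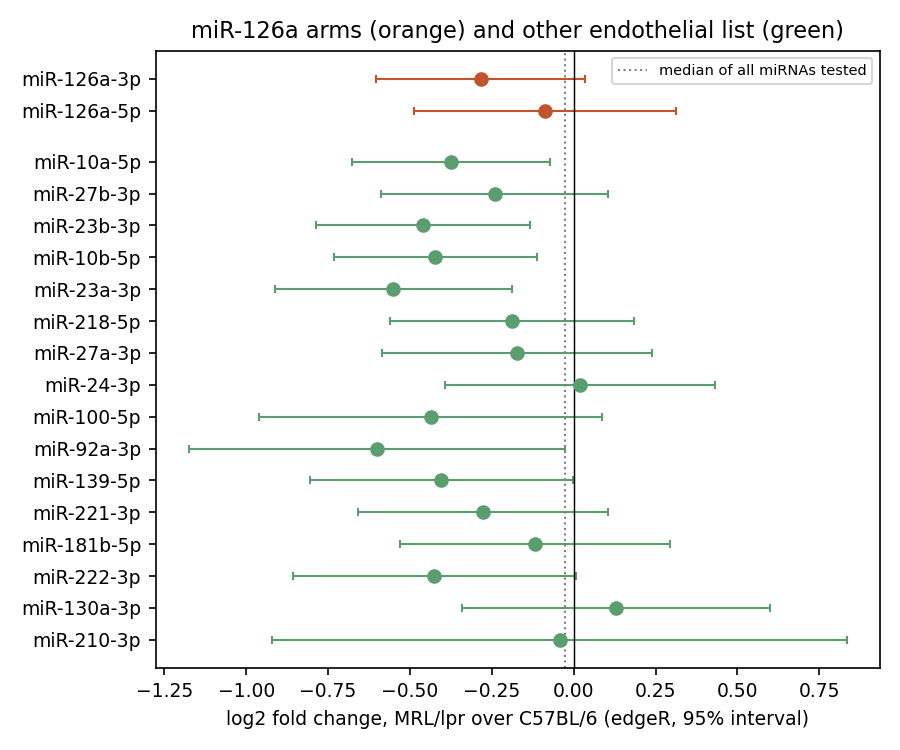
Log2 fold change of MRL/lpr over C57BL/6 with the 95% interval of the edgeR fit for the miR-126a arms (orange) and the 16 tested members of the other endothelial list (green, by falling mean level). All but miR-24-3p and miR-130a-3p lie below 0, and the dotted line marks the median of all miRNAs tested, -0.03.

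To set miR-126 against other cells of the kidney, each arm was divided by the summed CPM of fixed lists of miRNAs of other cell types, which removes the scaling. With 3 against 3 libraries the smallest exact two-sided permutation p is 0.1, so no ratio could pass 0.05, and the 10 ratios were adjusted together. Against kidney epithelium (miR-192-5p, miR-194-5p, the miR-200 family, miR-204-5p and miR-802-5p), miR-126a-3p was 0.724, 0.975 and 0.703 times the list in C57BL/6 replicates 1, 2 and 3. It was 0.537, 0.602 and 0.523 times the list in MRL/lpr replicates 1, 2 and 3. All MRL/lpr ratios lay below all C57BL/6 ratios, by 0.698-fold in the mean (exact permutation p = 0.1, adjusted p = 0.5).

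This ratio also moves with the list. Of its 9 members, all tested, 2 passed as higher in MRL/lpr, against 19 of 451 (4.21%) over all miRNAs tested. They were miR-204-5p (log2 fold change 1.52, edgeR adjusted p = 0.00141) and miR-802-5p (1.75, edgeR adjusted p = 0.00793). The other 7 did not pass, among them the most abundant, miR-429-3p (31145 ± 9029 CPM for C57BL/6 and 33698 ± 3496 CPM for MRL/lpr; SD, n = 3; edgeR adjusted p = 0.776). Without miR-204-5p in the list the ratio was 0.763, 1.04 and 0.740 for the C57BL/6 libraries and 0.609, 0.702 and 0.606 for those of MRL/lpr, still without overlap (0.761-fold, exact permutation p = 0.1). The list summed to 70013 CPM in C57BL/6 replicate 2 and to between 108335 and 119855 CPM in the other libraries. Without C57BL/6 replicate 2, the log2 difference of the ratio was -0.37, the smallest of the 6 left-out runs, against -0.52 with all libraries. For miR-126a-5p the strains overlapped (0.805-fold, a log2 difference of -0.31, exact permutation p = 0.4, adjusted p = 0.8). With the mean of the members' log2 CPM in place of their sum, which gives rare members equal weight, the log2 differences were -0.77 for the 3p arm and -0.56 for the 5p arm (unadjusted exact permutation p = 0.1 for each).

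Against mural cells, the smooth muscle cells and pericytes that wrap vessels, the ratio of miR-126a-3p in MRL/lpr stayed within the C57BL/6 range. The arm was at 2.43, 1.85 and 2.62 times the summed miR-143 and miR-145a level in C57BL/6 replicates 1, 2 and 3, and 2.26, 2.34 and 2.37 times in MRL/lpr replicates 1, 2 and 3. The 3 MRL/lpr values were close together and the lowest value was in C57BL/6 replicate 2 (log2 difference 0.03, exact permutation p = 1, adjusted p = 1). Without that library the log2 difference was -0.12. Its main member, miR-143-3p, had 32033 ± 3669 CPM for C57BL/6 and 25452 ± 3789 CPM for MRL/lpr (SD, n = 3), a log2 fold change of -0.33 (edgeR adjusted p = 0.252). None of the 3 tested mural miRNAs passed, with a median log2 fold change of -0.33. For miR-126a-5p the mural ratio gave a log2 difference of 0.23 (exact permutation p = 0.3, adjusted p = 0.75).

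C57BL/6 replicate 2 stood apart in the lists of blood and connective tissue cells. The leukocyte list summed to 28909 CPM there, against 6223 and 6051 CPM in C57BL/6 replicates 1 and 3 and 9385 to 11081 CPM in MRL/lpr. Most of this sum is miR-146a-5p, at 25568 CPM in C57BL/6 replicate 2, so the sum mainly follows that miRNA. All 7 leukocyte miRNAs tested were highest among C57BL/6 libraries in that replicate, as were 172 of the 451 miRNAs tested in all. The erythroid list was lowest there, at 596 CPM against 2841 to 4311 CPM in the other 5. miR-126a-3p in that library, 68252 CPM, was the lowest of the C57BL/6 group. The part of these cells in the level of miR-126 was not tested, and the log2 fold change of miR-126a-3p without this library was -0.34.

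Ratios of miR-126a-3p to these lists followed that replicate. To the leukocyte list they were 13.1, 2.36 and 12.9 in C57BL/6 replicates 1, 2 and 3, and 5.52, 7.69 and 5.14 in MRL/lpr replicates 1, 2 and 3, so MRL/lpr lay between the C57BL/6 values (exact permutation p = 0.8, adjusted p = 1). Without C57BL/6 replicate 2 the log2 difference was -1.11 in place of -0.29, and without C57BL/6 replicate 1 or 3 it was 0.13 or 0.11. With the mean of logs it was -0.95 (unadjusted exact permutation p = 0.3). In this list miR-155-5p, induced in activated lymphocytes and macrophages, was the 1 of 7 members past the threshold (57.1, 102 and 50.9 CPM in C57BL/6 and 174, 145 and 200.1 CPM in MRL/lpr, edgeR adjusted p = 0.0331). The most abundant, miR-146a-5p, which makes up most of the sum, did not pass (log2 fold change -0.55, edgeR adjusted p = 0.721). Of the 7 members, 5 had a log2 fold change above 0, against 219 of 451 over all miRNAs tested. Among the 5 were miR-142a-3p (1.45, edgeR adjusted p = 0.0943) and miR-142a-5p (1.21, edgeR adjusted p = 0.245). Over all miRNAs tested, 19 of 451 (4.21%) passed as higher in MRL/lpr.

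To the erythroid list the ratios of miR-126a-3p were 28.8, 114 and 22.3 for the C57BL/6 libraries and 16.6, 20.8 and 13.2 for those of MRL/lpr. The MRL/lpr values all lay below (exact permutation p = 0.1, adjusted p = 0.5). The log2 difference fell from -1.34 to -0.61 without C57BL/6 replicate 2. This ratio also moves with its list. The most abundant member, miR-451a (log2 fold change 0.70), and the other 3 tested did not pass. All 4 had a log2 fold change above 0, with a median of 0.57, against 219 of 451 above 0 over all miRNAs tested. To the mesenchymal list, in which miR-199a-3p is the most abundant and none of 6 passed, the log2 difference was -0.04 (exact permutation p = 0.9, adjusted p = 1). miR-199a-3p and miR-199b-3p have the same mature sequence in RefSeq, and their counts were split between the rows differently in 1 library: C57BL/6 replicate 3 had 37.7 CPM for miR-199a-3p and 2347 CPM for miR-199b-3p, while the other 5 had 2415 to 5815 CPM and 0.993 to 37.6 CPM. Their sum in that replicate, 2385 CPM, was the lowest of the 6, next to 2432 CPM in MRL/lpr replicate 2, and the summed list does not depend on the split. For miR-126a-5p the log2 differences were -0.09, -1.13 and 0.16 for the leukocyte, erythroid and mesenchymal lists, all with overlap (exact permutation p = 1, 0.3 and 0.7, adjusted p = 1, 0.75 and 1).

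**Figure D5:**
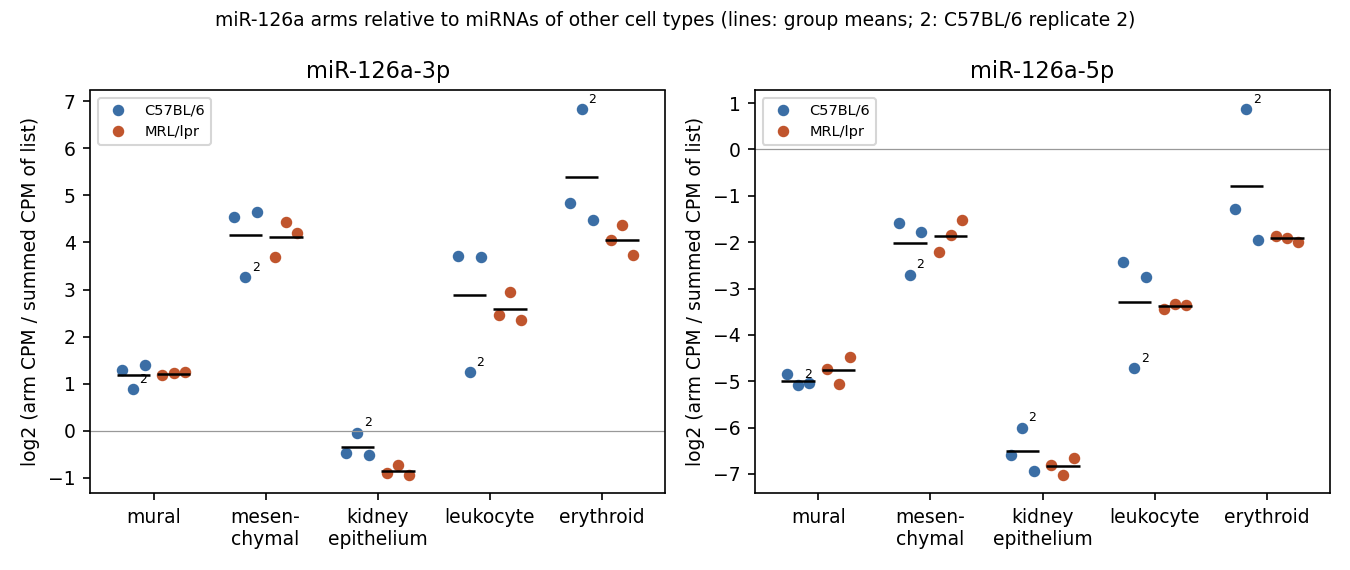
Log2 of the CPM of miR-126a-3p (left) and miR-126a-5p (right) over the summed CPM of 5 lists of miRNAs of other cell types, with points for libraries, lines at group means and C57BL/6 replicate 2 marked. For miR-126a-3p, MRL/lpr lies below C57BL/6 without overlap for the kidney epithelium and erythroid lists only. It lies inside the C57BL/6 range for the mural, mesenchymal and leukocyte lists.

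The miRNAs whose log2 CPM followed miR-126a-3p most closely over the 6 libraries, among 154 others with a mean of at least 100 CPM, were let-7a-5p (Pearson's r 0.97), let-7d-5p (0.96), miR-222-3p (0.93), let-7e-3p (0.93) and miR-615-3p (0.92). For miR-126a-5p they were 2 of the authors' predicted entries (r 0.94 and 0.89), then miR-24-3p (0.87), miR-152-3p (0.82) and miR-29a-3p (0.80). The 2 lists share no member. miR-222-3p and miR-24-3p belong to the endothelial list above. These r values are the highest of many over 6 libraries that share depth and scaling, and they describe these libraries only. For comparison, 92 of the 154 had a higher r with miR-126a-3p than its own 5p arm did.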

How the data were processed

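Small RNA from kidney was sequenced after adapter ligation, PCR and gel size selection, per the labels' protocols. The authors deposited 1 table of raw whole-number counts, 1 row per mature miRNA. Bowtie2, DESeq2 and GRCm38.p6 appear in the submitters' processing notes without a role, and how strand and reads with several matches were treated was not stated. Columns were matched to samples by strain, age and replicate number. Library pairs within a strain differed far beyond counting noise if each read is taken as a separate molecule.

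The tests were run with edgeR 4.0.16 and limma 3.58.1 under R 4.3.3. The settings were filterByExpr (minimum count 10, minimum total 15), TMM scaling, robust quasi-likelihood fit on group, Benjamini-Hochberg adjustment, threshold 0.05. Arm balance used limma, with 1 CPM added, and ratios an exact permutation test. Tests were tried on simulated data. Alternatives were other scalings and filters, DESeq2 1.42.0, limma-voom, non-robust dispersion, other pseudocounts, the replicate number as a block and each library left out. The ratios without miR-204-5p, those with the miR-199a-3p and miR-199b-3p rows summed, and the endothelial counts by scaling and left-out library, were added after seeing the data. Members and lists were chosen with earlier results of these data known. Named miRNAs were both arms, miR-126b, neighbours in rank, the 4 most abundant endothelial members, the most abundant member of each other list, list members past the threshold and the 5 most alike to each arm. The fold used ViennaRNA 2.7.2 and figures matplotlib 3.10.9.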

Additional observations from a re-analysis of the deposited data

How the results depend on the processing

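miR-126a-3p kept its direction and stayed short of the threshold in all 16 alternatives, with log2 fold changes from -0.43 to -0.20 over the runs with 1 library left out. miR-126a-5p did so in 15 of 16 (-0.23 to -0.03 with 1 left out) and turned to 0.068 with library size alone. The replicate numbers did not pair the samples (correlations of same-numbered deviations -0.37, 0.034 and -0.37). With the replicate number as a block, the log2 fold changes were -0.29 and -0.08 for the 3p and 5p arms, and the arm balance kept its direction. The median of the other endothelial miRNAs stayed below 0 in all 16 (-0.41 to -0.28 with 1 left out), and the arm balance stayed above 0 in all 10 (0.08 to 0.36). The number of miRNAs past the threshold, 28, was 64 (34 higher, 30 lower) with no filter, 51 (32 higher, 19 lower) with DESeq2, 13 (8 higher, 5 lower) with the block, 19 (14 higher, 5 lower) without robust dispersion and 5 to 54 with 1 library left out (15, 54 and 11 without C57BL/6 replicates 1, 2 and 3, and 5 without MRL/lpr replicate 3); with library size alone it was 24 higher and 6 lower.

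Ratios near 0 turned sign. With the mean of logs in place of the summed list, the log2 differences of miR-126a-3p and miR-126a-5p were -0.12 and 0.08 for the mural, 0.19 and 0.39 for the mesenchymal, -0.77 and -0.56 for the kidney epithelium, -0.95 and -0.75 for the leukocyte and -1.04 and -0.83 for the erythroid list. With the miR-199a-3p and miR-199b-3p rows summed first, an alternative added after seeing the data, the mesenchymal values were -0.10 and 0.10. With 1 library left out, miR-126a-3p ranged from -0.12 to 0.13 for the mural, -0.49 to 0.20 for the mesenchymal and -1.11 to 0.13 for the leukocyte list, and miR-126a-5p from -0.18 to 0.38 for the mesenchymal and -0.80 to 0.35 for the leukocyte list. Those to the kidney epithelium list stayed below 0 for both arms in every alternative run (-0.60 to -0.37 and -0.53 to -0.06 with 1 left out), and those to the erythroid list likewise (-1.79 to -0.61 and -1.71 to -0.30). Signs turned without C57BL/6 replicate 2 for the mural ratio of the 3p arm, without C57BL/6 replicate 1 or 3 or MRL/lpr replicate 1 for its mesenchymal ratio, without C57BL/6 replicate 2 or MRL/lpr replicate 3 for the mesenchymal ratio of the 5p arm, and without C57BL/6 replicate 1 or 3 for both leukocyte ratios. The cause of the changes was not tested. Depth limits miR-126b, with 0 to 13 counts a library, and kept 3 list members out of the test: miR-132-3p (at most 30 counts), miR-143-5p (at most 12) and miR-144-5p (at most 8).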
